A study of Mus musculus with 2 samples.

Results

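The 10 genes described here decide between division and cell cycle exit in myoblasts, the dividing precursors of muscle fibres. They are the cyclin-dependent kinase gene Cdk4, the D cyclin genes Ccnd1, Ccnd2 and Ccnd3, the CDK inhibitor genes Cdkn1a, Cdkn1b, Cdkn2a and Cdkn2c, and the pocket protein genes Rb1 and Rbl1. They were chosen by name, and every probe set that the array's annotation assigns to them was used, 28 probe sets of 45037 on the array and 10 genes of 18193 with a named probe set. A probe set is a group of short oligonucleotides that together report 1 signal for a stretch of a transcript.

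The RNA came from cultured mouse skeletal myoblasts at passage 3, of which 1 culture was labelled Foxj3 wild type (WT) and 1 Foxj3 knockout (KO). Foxj3 encodes a forkhead transcription factor. Both cultures grew in DMEM with 20% serum and were harvested in growth conditions at 80% confluency, and each was hybridised to 1 Affymetrix array. The strain and age of the animals, the part of Foxj3 that was removed, and whether the cells were a line or a primary culture are not given in the sources used here. With 1 array a group the spread between cultures is unknown and no test was possible; the precision is limited by the number of arrays.

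The D cyclins bind and activate Cdk4. The active kinase phosphorylates the pocket proteins, the retinoblastoma protein Rb (from Rb1) and p107 (from Rbl1), which then release E2F transcription factors and allow entry into S phase. INK4 inhibitors, among them p18 from Cdkn2c and p16 from Cdkn2a, bind the kinase itself, while the CIP/KIP inhibitors p21 (Cdkn1a) and p27 (Cdkn1b) bind cyclin and kinase complexes. In muscle, p21, Rb and cyclin D3 are known for their rise or their action as myoblasts leave the cycle and differentiate, and cyclin D1 with Cdk4 for holding back the muscle determination factor MyoD.

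The signals are the linear intensities of the deposited table. A detection floor was set at the 40th percentile of both arrays together, a signal of 47.04, and values under it were raised to it before taking log2. A probe set is called measured if it is over the floor on at least 1 array, and a gene is represented by its brightest probe set unless stated otherwise. Ratios are KO over WT, and a ratio with 1 array under the floor is a bound. By its brightest probe set Foxj3 itself was 6.41-fold lower in KO (495.51 and 77.28), another probe set was higher (79.74 and 99.40) and the third was under the floor on both arrays, so the targeted gene does not settle the labels and every direction rests on the library labelled KO. Among 14597 measured genes, 3.73% were higher in KO by 2-fold or more and 6.72% were lower by as much, and the median log2 ratio was -0.06. Among 25057 measured probe sets of named genes the shares were 5.62% and 6.67%. The arrays had median signals of 62.03 (WT) and 63.94 (KO), and a constant difference in scale would move all ratios together.

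Of the 10 genes, 1 was higher by 2-fold or more in the KO library, Cdk4, and 0 were lower by 2-fold or more, beside the 3.73% and 6.72% of all genes. The median log2 ratio of the 10 was 0.07, with 6 genes above 0 and 4 below. Each role held genes of both directions. Cdk4, Ccnd1 and Ccnd3 read higher in the KO library and Ccnd2 lower. Of the inhibitors, Cdkn2c and, barely, Cdkn2a read higher and Cdkn1a and Cdkn1b lower, and of the pocket protein genes Rbl1 read slightly higher and Rb1 lower. The median log2 ratio was 0.38 over the 4 kinase and D cyclin genes (3 above 0, 1 below), -0.39 over the 4 CDK inhibitors (2 and 2) and -0.36 over the 2 pocket protein genes (1 and 1). Counted by probe set the inhibitors had 3 above 0 and 2 below, with a median of 0.02, so their median has no settled sign. With the mean over the measured probe sets of each gene in place of the brightest, the medians were 0.55, -0.16 and -0.47. All 4 kinase and D cyclin genes were then above 0, while 2 of the 4 inhibitors and 0 of the 2 pocket protein genes were. Over all 10 genes, 23 of the 28 probe sets were measured, 15 above 0 and 8 below. Of these, 4 were higher by 2-fold or more and 0 lower by 2-fold or more, beside the 5.62% and 6.67% of all probe sets. The 4 belonged to Cdk4, Ccnd1 and Ccnd2.

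At 1.5-fold, 1 of the 10 was higher and 4 were lower (Cdkn1a, Cdkn1b, Rb1 and Ccnd2), where 12.8% and 19.3% of all genes were, and of the 23 probe sets 7 were higher and 4 lower, where 15.4% and 18.3% were. At 3-fold, 0 of the 10 were higher or lower (0.747% and 1.51% of all genes), and 1 probe set, of Ccnd1, was higher and 0 lower (1.51% of all probe sets each way). With the mean over probe sets, 1 of the 10, again Cdk4, was higher by 2-fold or more and 0 were lower, beside 3.03% and 4.29%.

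**Figure D1:**
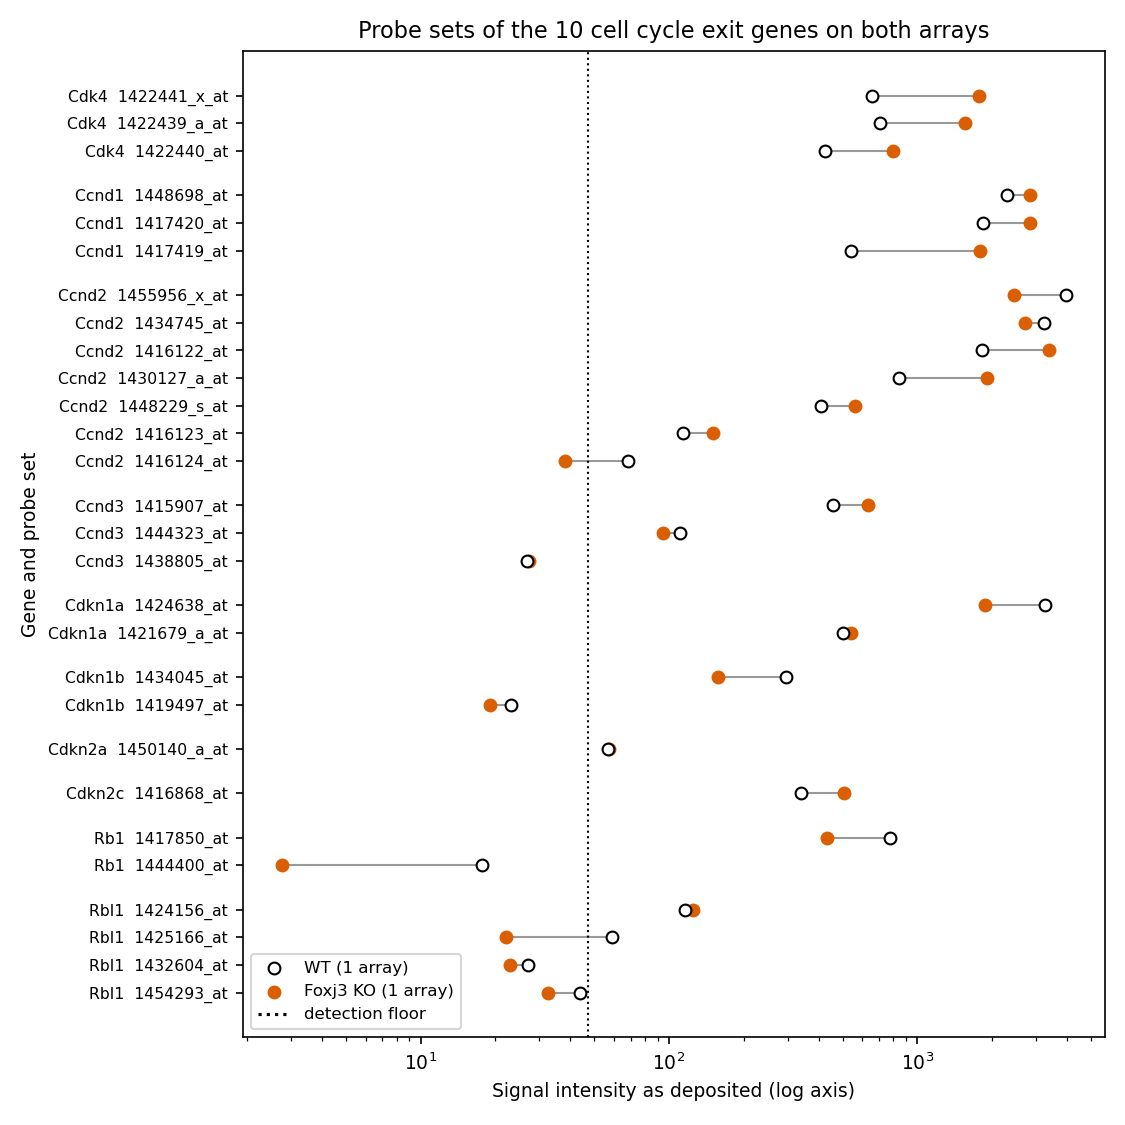
Signal intensity as deposited (log axis) of all 28 probe sets of the 10 genes, with the WT array as an open circle and the Foxj3 KO array as a filled one, joined by a line; the dotted line is the detection floor of 47.04. All 3 probe sets of Cdk4 and of Ccnd1 lie further right on the KO array, those of Ccnd2 point both ways, and 5 probe sets lie under the floor on both arrays, where their order is not read.

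Cdk4, the kinase partner of the D cyclins, gave the highest ratio of the 10 and the one on which its probe sets agreed best. The probe set 1422441_x_at read 654.57 in WT and 1763.93 in KO, 2.69-fold higher (log2 ratio 1.43). The second, 1422439_a_at, read 707.36 and 1562.21, 2.21-fold higher, and 1422440_at read 423.59 and 795.02, 1.88-fold higher. All 3 were therefore higher on the KO array. The brightest carries the suffix _x_at, which marks probes that can match other transcripts, and without such probe sets the log2 ratio was 1.14.

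Probe sets of a gene share the RNA of each array and are not replicates, but their agreement is the technical check these data offer. The 3 log2 ratios of Cdk4 had an SD of 0.26. Among 2579 genes with at least 3 measured probe sets the median of this SD was 0.56, and 86.2% had a larger one. In 20 of these 2579 genes (0.775%), Cdk4 among them, every measured probe set was higher in KO by 1.5-fold or more. Genes with every measured probe set lower by as much were not counted. By its brightest probe set Cdk4 had a higher ratio than 98.8% of measured genes, and by the mean over its probe sets, 2.24-fold, than 98.1%. The log2 ratio lay between 1.14 and 1.43 under all 9 alternative settings, of which the other floors and the choice by accession could not move it.

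The Cdk4 gene lies on chromosome 10 (127063535 to 127067288 in GRCm38.p6). Its upstream region is shown because Cdk4 had the largest ratio, and that of Cdkn1b because it had the lowest. Both are the 250 bases before the RefSeq start on the plus strand, chr10:127063285-127063534 for Cdk4 and chr6:134920151-134920400 for Cdkn1b. Capitals mark matches on either strand to CACGTG (the E-box bound by Myc with its partner Max), to any other E-box CANNTG, to the GC box GGGCGG, to the E2F motifs TTTCGCGC and TTTGGCGC, or to the forkhead core TAAACA. Every CACGTG is also a CANNTG.
Cdk4: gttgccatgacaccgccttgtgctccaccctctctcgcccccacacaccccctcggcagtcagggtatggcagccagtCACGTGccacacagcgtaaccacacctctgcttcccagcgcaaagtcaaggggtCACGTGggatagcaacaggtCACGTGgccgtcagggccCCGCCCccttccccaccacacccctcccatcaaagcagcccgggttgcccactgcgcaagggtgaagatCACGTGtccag
Cdkn1b: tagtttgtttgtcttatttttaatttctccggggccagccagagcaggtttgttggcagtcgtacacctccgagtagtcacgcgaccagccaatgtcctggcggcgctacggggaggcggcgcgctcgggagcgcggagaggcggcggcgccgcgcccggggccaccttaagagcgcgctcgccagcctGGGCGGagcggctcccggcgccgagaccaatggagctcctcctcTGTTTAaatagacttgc

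The Cdk4 window held CACGTG at 4 places, beginning 172, 118, 98 and 11 bases before the start, and 1 GC box. Of 32851 such windows in the RefSeq promoter table, which can hold several for a gene, 6.02% held CACGTG at least once and 7 held it at least 4 times; the count of 4 was set after the Cdk4 window was seen. Myc itself, a known activator of growth and cell cycle genes, read 239.33 in WT and 533.09 in KO, 2.23-fold higher by its single measured probe set. Mycn, a gene of the same family named after its value was seen, read 365.81 in WT and 252.99 in KO (log2 ratio -0.53). Its other measured probe set had a log2 ratio of 0.96. No binding was measured, and whether the Myc signal has a part in that of Cdk4 was not tested. The Cdkn1b window held 1 forkhead core (as TGTTTA, beginning 17 bases before the start) and 1 GC box, where 12% of all windows hold a forkhead core and 32.7% a GC box. In the 11 windows listed for 7 of the 10 genes, the forkhead core was found in 2, of Cdkn1b and Ccnd3, the E2F motifs in 1, of Rbl1, and CACGTG in 1, of Cdk4. CANNTG was found in 3 of the 11 and the GC box in 8. Over all windows the shares were 0.654% for the E2F motifs, 66.2% for CANNTG and 32.7% for the GC box. The GC content of the 11 windows ranged from 42.8% to 78.4%, where the mean of all windows was 53.2%. These shares were not matched for GC content, on which the count of GC boxes depends. Ccnd1, Ccnd2 and Rb1 are the members with no window listed.

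Ccnd1 encodes cyclin D1, the D cyclin that responds to growth factors in many dividing cells. Its probe set 1448698_at read 2286.83 and 2835.91, 1.24-fold higher on the KO array (log2 ratio 0.31). Next in brightness, 1417420_at read 1831.66 and 2839.65 (1.55-fold), and 1417419_at read 539.39 and 1780.02 (3.30-fold, log2 ratio 1.72). All 3 were higher on the KO array but differed in size, with an SD of 0.74, larger than in 71.3% of genes with at least 3 measured probe sets. Among the 2579 genes, 11.5% had all their measured probe sets higher and 11.3% all lower. The mean over the 3 gave a log2 ratio of 0.89, higher than 95.7% of genes by that measure, while by the brightest probe set alone the gene was higher than 75.0%. With the arrays scaled by quantiles the log2 ratio by the brightest probe set was 0.16.

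Ccnd2 encodes cyclin D2, and its 7 probe sets did not share a direction. The brightest, 1455956_x_at, read 3952.20 in WT and 2461.02 in KO, 1.61-fold lower, and 1434745_at read 3223.54 and 2717.57, 1.19-fold lower. The next ones in brightness read higher on the KO array: 1416122_at at 1828.68 and 3395.52 (1.86-fold), 1430127_a_at at 843.77 and 1911.96 (2.27-fold), 1448229_s_at at 410.97 and 559.44 (1.36-fold) and 1416123_at at 113.82 and 150.20 (1.32-fold). The dimmest, 1416124_at, read 68.47 in WT and was under the floor in KO, at least 1.46-fold lower. So 4 of 7 were higher and 3 lower, and the log2 ratios spanned 1.86. The log2 ratio of the gene was -0.68 by its brightest probe set, 0.21 as the mean over probe sets and 0.89 when only probe sets with an mRNA or full-length cDNA accession (NM_, BC or AK) were used, an alternative chosen after seeing the data. These arrays give no single direction for Ccnd2. Where the probe sets lie along the transcript was not used here.

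Ccnd3 encodes cyclin D3, the D cyclin known for its rise in differentiating muscle. Its brightest probe set, 1415907_at, read 458.73 and 630.41, 1.37-fold higher on the KO array (log2 ratio 0.46). A dimmer one, 1444323_at, read 111.21 and 94.34, 1.18-fold lower, and 1438805_at stayed below the floor in WT and KO alike. The measured 2 thus differed in direction, with a mean log2 ratio of 0.11. Their SD was 0.49, where the median over the 3672 genes with 2 measured probe sets was 0.42.

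**Figure D2:**
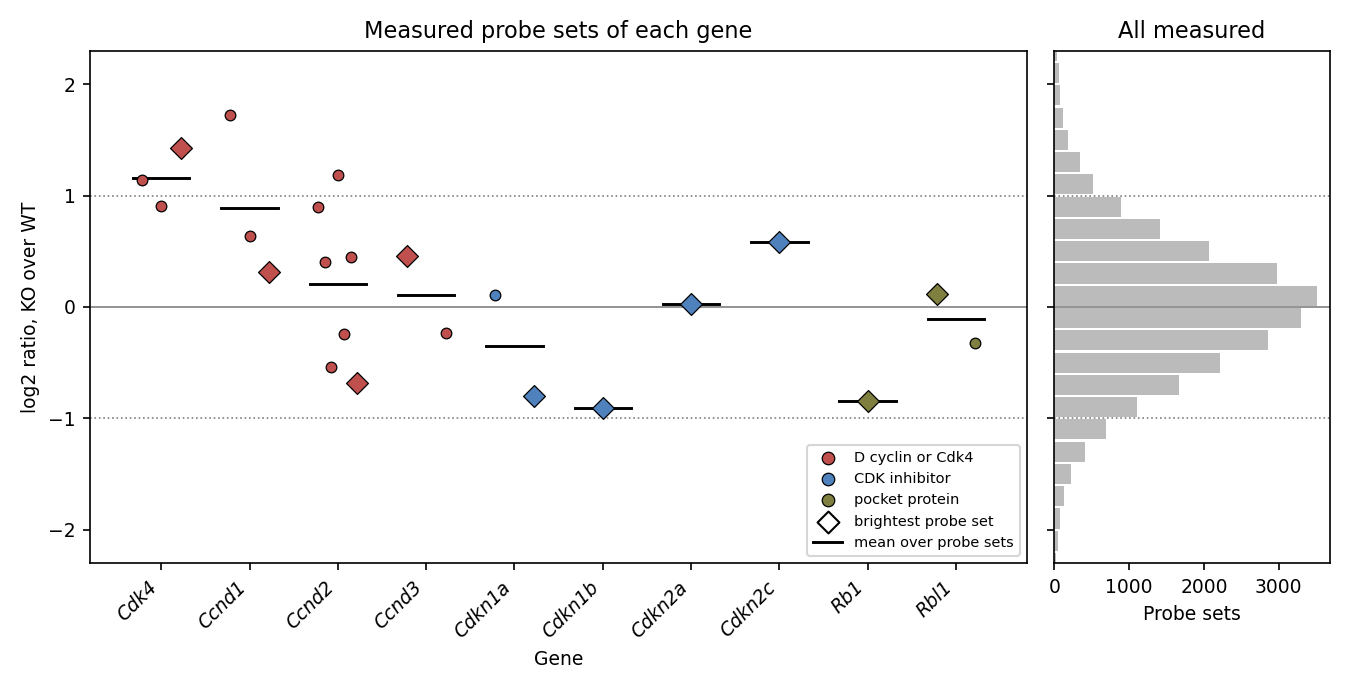
Log2 ratio of KO over WT for each measured probe set of the 10 genes (left; a diamond marks the brightest probe set and a bar the mean over probe sets), beside the number of probe sets at each ratio among all measured ones of named genes (right). Dotted lines mark 2-fold; Cdk4 and Ccnd1 lie above 0 with all 3 probe sets, Ccnd2 spans 1.86 on the log2 scale, and Cdkn1b and Rb1 rest on a single measured probe set each.

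Among the CDK inhibitors, Cdkn1a, which encodes p21, a target of both p53 and MyoD, had less signal in KO by its brighter probe set. This one, 1424638_at, read 3262.55 in WT and 1869.88 in KO, 1.74-fold lower (log2 ratio -0.80), a lower ratio than 88.8% of measured genes had. The other, 1421679_a_at, read 501.36 and 539.21, 1.08-fold higher (log2 ratio 0.10). The pair thus did not share a direction, and their mean log2 ratio was -0.35. The log2 ratio was between -0.98 and -0.85 under the 3 other scalings of the arrays. The other floors and the choices among probe sets by suffix or accession leave the same probe set in place and are no check of it, and no alternative rests on the second probe set alone.

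Cdkn1b, which encodes p27, an inhibitor linked to quiescence, read 296.12 in WT and 157.92 in KO by 1434045_at, 1.88-fold lower (log2 ratio -0.91). This was the lowest ratio of the 10 genes, and 8.67% of all measured genes had a lower one. Its other probe set, 1419497_at, stayed below the floor, at 23.18 and 19.00, so the value has no second measurement.

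Of the INK4 genes chosen here, Cdkn2c read higher in the KO library and Cdkn2a was level, while the INK4 genes Cdkn2b and Cdkn2d, given below, read slightly lower. Cdkn2c, which encodes p18, read 340.09 and 508.12 by its only probe set, 1.49-fold higher on the KO array (log2 ratio 0.58), and 13.0% of measured genes had a higher ratio. Cdkn2a, whose locus encodes the INK4 inhibitor p16 and, from another first exon, the p53 activator ARF, read 56.55 and 57.51, level and close to the floor. Its single probe set is named for the gene and was not used to tell these products apart.

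The other INK4 and CIP/KIP inhibitor genes of the mouse, which are not among the 10, were 3. Cdkn2b read 488.25 and 419.68 (log2 ratio -0.22), Cdkn2d 103.44 and 94.62 (-0.13), and Cdkn1c, named here after its value was seen, 47.85 and 38.00, just over the floor in WT and under it in KO, so that its ratio has no size here.

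Of the pocket protein genes, Rb1 was lower in the KO library and Rbl1 had no clear direction. Rb1, which encodes the retinoblastoma protein, read 777.14 in WT and 433.83 in KO by 1417850_at, 1.79-fold lower (log2 ratio -0.84). A lower ratio was seen in 10.2% of measured genes. Its other probe set, 1444400_at, stayed below the floor, at 17.65 and 2.76. The log2 ratio lay between -0.90 and -0.78 under the 9 alternatives, which all used the same probe set and of which only the scalings and the pseudocount could move it. Rbl1, which encodes p107, read 115.54 and 124.93 by 1424156_at (1.08-fold higher), and 1425166_at read 59.06 in WT and was under the floor in KO, at least 1.26-fold lower. Its other 2 probe sets were under the floor on both arrays.

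A difference between the log2 ratios of 2 genes does not depend on a constant scaling of the arrays. The pairs given here were picked after the values were seen. Between Cdk4 and Cdkn1a the difference was 2.23 by the brightest probe sets and 1.51 by the means over probe sets. Between Cdk4 and Cdkn1b it was 2.34 and 2.07, and between Cdk4 and Rb1 it was 2.27 by the brightest probe sets. Between Ccnd1 and Cdkn1a it was 1.11 and 1.24. Cdkn2c stood closer to Cdk4, at 0.85 and 0.58.

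**Figure D3:**
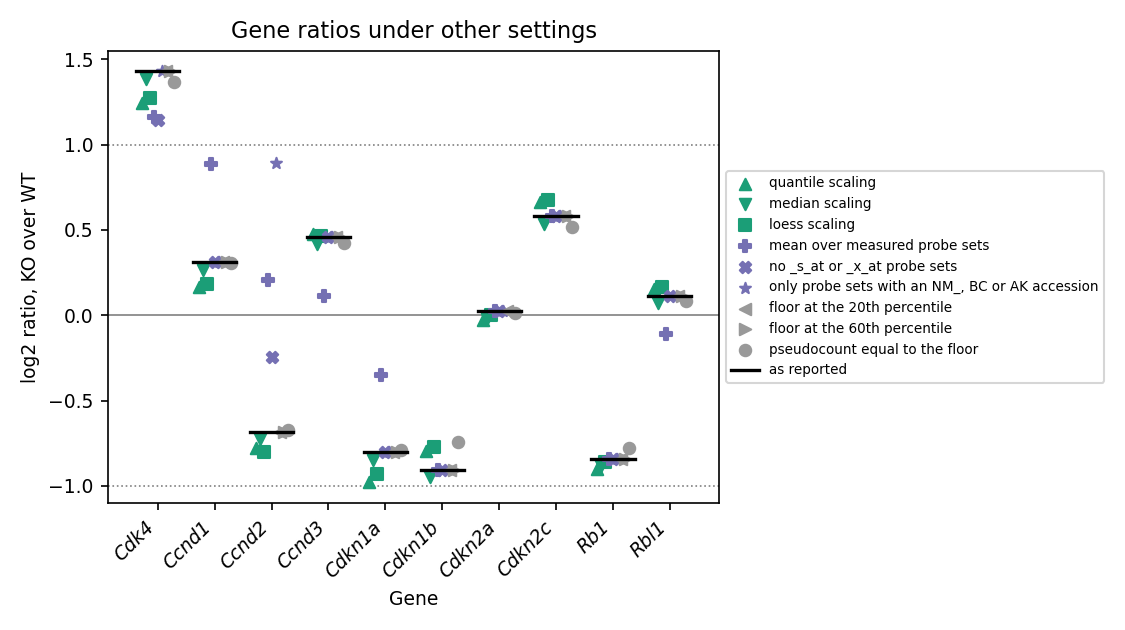
Log2 ratio of KO over WT for each of the 10 genes as reported (black bar) and under the alternative settings (symbols, shifted sideways so they can be told apart). Cdk4 stays above the 2-fold line (dotted) throughout, no gene reaches 2-fold lower, and Ccnd2 ranges from -0.80 to 0.89.

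The genes around these 10 were taken as 7 lists with 133 distinct genes, of which 125 were measured. Of these, 3 were higher by 2-fold or more and 11 lower by 2-fold or more, beside the 3.73% and 6.72% of all genes, and their median log2 ratio was -0.15. The lists overlap in Mdm2 and were chosen with earlier results of these data known.

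Genes that E2F switches on for DNA replication were slightly lower on the whole by their brightest probe sets. Of 34 measured, 0 were higher by 2-fold or more and 5 lower by 2-fold or more, beside the 3.73% and 6.72% of all genes. Of the 34, 12 were above 0 and 22 below. The median log2 ratio was -0.35, where that of all genes was -0.06. The median of the list was -0.10 with the mean over probe sets, -0.07 without _s_at and _x_at probe sets and 0.03 with NM_, BC or AK accessions only. In these settings the medians of all genes were -0.02, -0.03 and -0.01. Ung, a uracil DNA glycosylase, read 140.82 in WT and was under the floor in KO, at least 2.99-fold lower. Cdc6, which loads the replicative helicase, read 132.02 and 62.55, 2.11-fold lower. Rpa2 and Mcm5 were 2.77-fold and 2.43-fold lower, and in each the other measured probe set was higher on the KO array, with log2 ratios of 0.64 and 0.34. The fifth, the DNA ligase gene Lig1, was 2.11-fold lower and was named after its value was seen.

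Of 12 measured genes for cyclins, CDKs or regulators of CDKs outside the 10, 1 was lower by 2-fold or more, where 6.72% of all genes were. This was Ccne2, which encodes cyclin E2, at 140.63 and 64.75 (2.17-fold). The median of the 12 was -0.16. Among 17 genes of the E2F, DP, p130 and MuvB group, 0 were higher by 2-fold or more and 2 lower, beside the 3.73% and 6.72% of all genes. The median of the 17 was -0.26, and -0.03 with the mean over probe sets. The 2 were the MuvB subunit genes Lin37 (211.15 and 102.10, 2.07-fold lower) and Lin54 (217.58 and 108.15, 2.01-fold lower), of which Lin54 had another probe set at a log2 ratio of 1.70. Among 18 genes for the turnover of p21, p27 and the D cyclins, the median was -0.09 and 1 was lower by 2-fold or more, again beside 6.72%. This was Dtl, which encodes a substrate receptor for the destruction of p21, at 174.82 and 76.22 (2.29-fold).

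Known inducers and repressors of the 10 genes included the widest differences. Of 26 measured, 3 were higher by 2-fold or more and 2 lower by 2-fold or more, beside the 3.73% and 6.72% of all genes. The median of the 26 was 0.12. Myod1, whose product activates Cdkn1a, read 631.27 in WT and 1750.95 in KO, 2.77-fold higher. Myog, a later factor of differentiation, read 1753.96 and 487.79, 3.60-fold lower. Mdm2, which encodes the ubiquitin ligase of p53 and is itself a p53 target, read 649.92 and 1487.83 (2.29-fold higher), and its second measured probe set read 233.59 and 806.37 (3.45-fold). Myc was the third higher gene. The other lower gene, Tcf7l2, named after its value was seen, was 2.14-fold lower, with 3 other probe sets of opposite sign.

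Targets of p53 other than Cdkn1a had a median of 0.02 over 16 measured genes. Mdm2 was the single one at least 2-fold different by its brightest probe set, beside the 3.73% higher and 6.72% lower of all genes. By the mean over probe sets the median was 0.20 and 2 were at least 2-fold higher, where 3.03% of all genes were. These were Mdm2 and Ccng1, the latter named after its value was seen. Mdm2 was thus higher and the bright probe set of Cdkn1a lower in the same library.

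**Figure D4:**
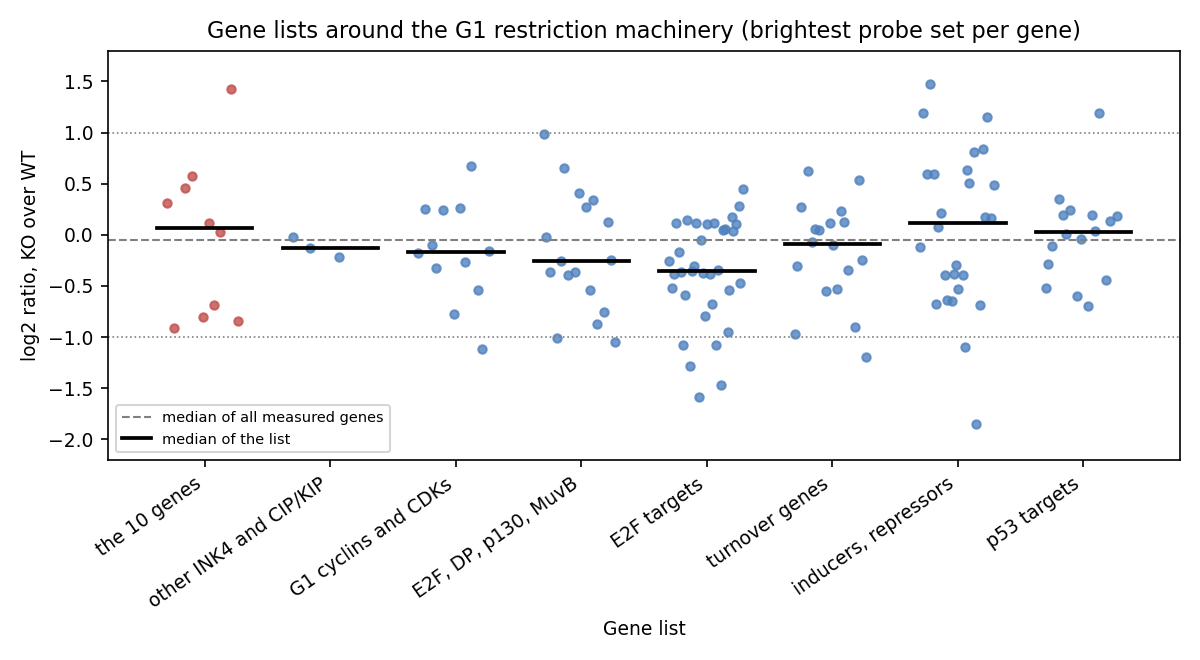
Log2 ratio of KO over WT by the brightest probe set of each measured gene, for the 10 genes (red) and the 7 surrounding lists (blue), with the list median as a black bar, the median of all measured genes as a dashed line and 2-fold as dotted lines. The E2F targets lie lowest, with a median of -0.35, and the 10 genes spread from -0.91 to 1.43 around a median of 0.07.

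Genes of muscle differentiation and of other cell types were read beside these values. Mef2c, a factor of muscle differentiation, read 403.70 in WT and was under the floor in KO, at least 8.58-fold lower, with its 4 other probe sets also lower. Muscle cell markers were present on both arrays: all 10 of the list were measured, with a summed signal of 10838 in WT and 9579 in KO. Of the fibroblast markers 6 of 9 were measured, 5 of them higher in the KO library, with a summed signal of 1368 and 1778. Among these 5, Dcn and Tcf21 were under the floor in WT, so their ratios are bounds, and Col1a1 lay near it (59.76 in WT and 83.72 in KO). Thy1, Lum and Pdgfrb were under the floor on both arrays, while Col1a2 (423.24 in WT and 701.07 in KO), Col3a1 (365.03 and 480.72) and Pdgfra (453.70 and 388.91) were well over it. Of the leukocyte markers 5 of 8 were measured (760 and 697), with Ptprc, Cd68 and Itgam under the floor. The brightest of the 5 were Adgre1 (312.77 in WT and 210.32 in KO) and Csf1r (171.16 and 276.49). Of the endothelial markers 3 of 7 were measured (280.3 and 349.3), with Pecam1, Tek, Tie1 and Emcn under the floor. Eng read 141.80 and 184.91, Kdr read 110.20 and 101.27, and Cdh5 was over the floor in KO only. Adipocyte markers (4 measured of 5 with a named probe set) summed to 838 and 462, with Fabp4 at 412.18 and 113.25 and Cebpa higher on the KO array (152.03 and 206.82). Lpl was lower by its brightest probe set and higher by its other one (log2 ratio 0.48). Schwann and neural markers (4 of 4) summed to 916 and 382, although 3 of the 4 (Sox10, S100b and Ngfr) were above 0 and the median log2 ratio was 0.15. The lower sum came from 1 probe set of Erbb3, at 628.48 in WT and under the floor in KO, while its other measured probe set was higher (log2 ratio 0.26). The part of cell composition or of the stage of differentiation in the signals of the 10 genes was not tested, and in RNA of whole cultures, fewer cells of a type and less RNA per cell cannot be told apart.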

How the data were processed

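Total RNA (10 ug) of each culture was made into biotin-labelled cRNA and hybridised to 1 Mouse430_2 array, per the labels' protocols and the file headers. The table deposited by the authors gives the intensity of each probe set on each array on a linear scale; how probes were summarised and arrays scaled is not given in the sources used here, and the values were used as deposited. Of 41 other settings recorded per array (deposited by the authors, no signal), 39 were identical, the array lot among them. The other 2 differed, the fluidics module among them, so module and genotype cannot be told apart. Both arrays were scanned on the same day.

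Of 45037 probe sets, 34945 had 1 gene symbol, 932 several and 9160 none; the last 2 kinds named no gene. Symbols were updated by Entrez identifier through a RefSeq gene table (GRCm38.p6), which held 34741 of them. The floor, the choice of probe set and the 2-fold threshold are given above. No p-value was computed. The calling code was tested on simulated data with known ratios. That test used bright genes, little added noise and ratios well beyond 2-fold, so it does not cover calls near 2-fold or near the floor. The members, the lists and the rule for naming genes (all 10 members; in each list up to 4 genes of largest ratio at least 2-fold, or the 2 largest; Foxj3, Myod1, Myog and Mef2c) were chosen with earlier results of these data known. Upstream windows came from a RefSeq promoter table of the same assembly. Calculations used Python 3.11.15 with pandas 2.3.3, and statsmodels 0.14.6 for loess (span 0.3). No column of the table lacked a sample.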

Additional observations from a re-analysis of the deposited data

How the results depend on the processing

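No paired analysis was possible because each group has 1 array; for the same reason no replicate could be left out. Of 87 recomputed gene ratios of the 10 genes, 2 moved by more than 1.5-fold, both of Ccnd2 (0.21 with the mean over probe sets and 0.89 with NM_, BC or AK accessions only). Cdkn2a turned sign with quantile and median scaling, at -0.03 and -0.02, and Rbl1 with the mean over probe sets, at -0.11; Cdkn2a gave no value with the floor at the 60th percentile, nor did Cdkn1b and Rbl1 with those accessions only. With a 1.5-fold threshold, 4 of the 10 genes were lower, and 7 of their probe sets were higher and 4 lower. Of the surrounding genes 12 were then higher and 26 lower, beside the 12.8% and 19.3% of all genes. With a 3-fold threshold, 0 of the 10 genes, 1 of their probe sets and 0 surrounding genes were higher. By that threshold 1 surrounding gene was lower, and of all genes 0.747% were higher and 1.51% lower. Quantile scaling left 2 member probe sets at least 2-fold higher, and the floor at the 20th percentile made 1 at least 2-fold lower. Surrounding genes at least 2-fold lower numbered 7 with quantile or loess scaling or the floor at the 60th percentile. They numbered 3 with the pseudocount and 5 with those accessions only. With those accessions 7623 genes were measured in place of 14597, so fewer surrounding genes could be counted. With the mean over probe sets 7 surrounding genes were higher, where 3.03% of all genes were. The remaining 56 counts and medians stayed within 1.5 times, or 1.5-fold, of the reported ones. The cause of these shifts was not tested. The scalings moved the median of all genes by up to 0.04 on the log2 scale. Another floor cannot move a gene that stays over it on both arrays. Those settings are thus no check of Cdk4, Rb1, Rbl1, Cdkn1a, Cdkn1b, Cdkn2c or the D cyclins. The arrays cannot separate the effect of genotype from differences between any 2 cultures. The signals of Cdkn2a and of the second measured probe set of Rbl1 lay near the floor.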

Other observations

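Among the surrounding genes, 28 had at least 3 measured probe sets, and in 7 of them all probe sets shared a direction, 4 higher and 3 lower in the KO library. Over all 2579 genes with at least 3 measured probe sets the shares were 11.5% and 11.3%. The higher ones were Ccng1, which encodes cyclin G1, a p53 target (log2 ratios from 0.20 to 1.88), Ctnnb1, which encodes beta-catenin (0.08 to 3.55), E2f5, which encodes a repressive E2F (0.41 to 1.20), and Rrm2, a subunit of ribonucleotide reductase (0.21 to 0.75). The lower ones were Dnmt1, the maintenance DNA methyltransferase (-1.22 to -0.80), Dtl (-1.20 to -0.15) and Foxo1, a forkhead factor (-1.88 to -0.14). For Dtl the agreement rests on the brightest probe set. Its other measured ones read 52.12 and 52.35 in WT and were under the floor in KO, so their ratios are bounds. These 7 genes were picked out after their values were seen. E2f1, the E2F best known for driving S phase genes, was split, with a log2 ratio of 0.99 by its brightest probe set and of -1.20 and -0.91 by the others.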
